A study of Homo sapiens with 12 samples.

Results

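The genes described here are 3 neurotrophin receptors, NTRK2, NTRK3 and NGFR, and 2 neurotrophins, BDNF and NTF3. They were picked by name after their levels in these samples were known, so their own values are given as a description, without a test, and support nothing by themselves. They make up 5 of the 58302 genes in the count files. Only 2 of the 5, NTRK2 and NTRK3, reached the mean of 20 counts over the 12 samples that 13454 genes passed. NGFR averaged 18.2 counts, BDNF 15.3 and NTF3 6.42, so these are given mainly as counts. RNA was sequenced from H1, a human embryonic stem cell line, as wild type (WT) and as a double knockout (dKO) of the histone H3K27 demethylases JMJD3 (KDM6B) and UTX (KDM6A), with 2 samples in each of 6 groups. The groups are WT and dKO neural progenitor cells (NPCs) at passage 2 (P2) and at passage 4 (P4), and WT and dKO cells after 28 days of differentiation (D28). Only P4 and day 28 are named in the labels, so that the P2 of the remaining NPCs rests on the methods of the study. The knockout removed the catalytic domains. JMJD3 was targeted first, its resistance cassette was excised with Cre, and UTX was then deleted in the JMJD3-/- cells, each time with antibiotic selection of clones, and the number of clones behind the dKO samples is not given. NPCs of both genotypes were kept in N2B27 medium with bFGF and EGF. For differentiation, passage 2 NPCs of both genotypes lost these factors and received GDNF, cAMP and BDNF protein in the medium, so BDNF was supplied to every day 28 culture whatever its own BDNF gene did.

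Neurotrophins are secreted growth factors that keep neurons alive and shape their axons, dendrites and synapses. Each is made as a precursor that proteases cut to the mature form. BDNF and NT-4 (NTF4) act mainly on the tyrosine kinase TrkB (NTRK2), and NT-3 (NTF3) mainly on TrkC (NTRK3), while p75NTR (NGFR) binds all of them, and their precursors together with sortilin (SORT1). NTRK2 and NTRK3 also give truncated receptors without a kinase domain, which glial cells are known to make. A count per gene adds up full-length and truncated transcripts, so the 2 forms cannot be told apart here.

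Levels are in CPM, counts divided by the effective library size and put on a common scale, and fold changes come from a fit of all 12 samples with the edgeR package. The libraries held 756942 to 10601172 counts, the lowest totals being those of the P2 NPCs, so that 3 counts correspond to 2.09 to 3.85 CPM at P2, 0.692 to 0.990 CPM at P4 and 0.298 to 0.715 CPM at D28, for counting error only. The 2 dKO-D28 samples differed more than other replicates, with a chi-square divided by its degrees of freedom of 12.5 against 1.63 to 2.90 in the other 5 groups. Counts of the targeted genes cover the whole gene and not only the deleted domain. KDM6A ranged from 43.7 to 60.3 CPM over the WT and from 27.3 to 58.4 CPM over the dKO samples, and KDM6B from 115 to 202 CPM and from 144 to 185 CPM. By stage, the log2 fold change of dKO over WT for KDM6A was -0.54 (standard error 0.28) at P2, -0.81 (0.22) at P4 and -0.04 (0.20) at D28. For KDM6B it was -0.13 (0.12), 0.61 (0.11) and -0.40 (0.10). Progenitor markers such as SOX2 (215 to 509 CPM) were present in every sample, whereas HES5 had no count in dKO NPCs at either passage. Markers of pluripotent cells summed to 113 to 128 CPM in WT-P2, 89.1 to 104 CPM in dKO-P2, 1.27 to 1.65 CPM in WT-P4, 33.9 to 37.2 CPM in dKO-P4, 0.596 to 0.947 CPM in WT-D28 and 46.3 to 84.9 CPM in dKO-D28 samples. Of the 5 markers, POU5F1 and NANOG had no count in any sample, and LIN28A, the only one tested, was called higher in dKO cells at P4 and D28 (log2 fold change 5.43 and 6.26). Their part in the results was not tested. Neuron markers summed to 4715 to 5317 CPM in WT-P4 and 4100 to 4129 CPM in WT-D28 cells, but to 878 to 900 CPM in dKO-P4 and 634 to 1153 CPM in dKO-D28 cells. At P2 they summed to 1228 to 1412 CPM in WT and 1029 to 1102 CPM in dKO NPCs. No batch is named, so batch and group cannot be told apart, and nothing states that samples of a group came from separate cultures, so p-values measure only the spread between these samples. An exact permutation test of 2 samples against 2 cannot go below p = 0.333.

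The genes lie on separate chromosomes. On hg38, NTRK2 (ENSG00000148053) is on the plus strand at chr9:84668375-85095751, NTRK3 (ENSG00000140538) on the minus strand at chr15:87859751-88256791 and NGFR (ENSG00000064300) on the plus strand at chr17:49495293-49515008. BDNF (ENSG00000176697) is on the minus strand at chr11:27654893-27722058 and NTF3 (ENSG00000185652) on the plus strand at chr12:5432108-5521536. RefSeq promoters of build GRCh38.p14 were found for 4 of the 5 genes, 12 windows of 250 bases before a start, and none for NGFR. The CpG-richest window of NTRK2 (chr9:84669783-84670032) has 31 CpG, that of NTF3 28 and the single one of NTRK3 23, against a median of 11 over 35116 promoters, of which 89.1%, 84.1% and 74.2% have fewer. The 5 windows of BDNF have 3 to 15 CpG. The windows are shown because JMJD3 and UTX act on a histone mark known from CpG-rich promoters. Neither the mark nor DNA methylation is part of these files. The stretches of these windows that overlap no annotated exon are given 5′ to 3′ on the strand of the gene, with each CpG in capitals. They are chr15:88256792-88256989 for NTRK3, chr12:5431858-5432107 for NTF3 and, for NTRK2, chr9:84701355-84701604 before its most downstream start, with 3 CpG. The CpG-richest NTRK2 window lies wholly within annotated exons and is not printed.
NTRK3: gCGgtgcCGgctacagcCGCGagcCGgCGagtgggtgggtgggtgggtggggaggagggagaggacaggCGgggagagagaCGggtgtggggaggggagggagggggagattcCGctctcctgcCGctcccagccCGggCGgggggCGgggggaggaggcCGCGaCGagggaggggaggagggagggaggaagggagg
NTF3: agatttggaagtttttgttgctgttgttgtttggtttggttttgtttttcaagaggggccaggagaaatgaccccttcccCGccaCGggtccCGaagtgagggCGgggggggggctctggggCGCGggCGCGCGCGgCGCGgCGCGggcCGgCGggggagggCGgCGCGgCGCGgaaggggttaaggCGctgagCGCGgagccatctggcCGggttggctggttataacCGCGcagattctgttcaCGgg
NTRK2: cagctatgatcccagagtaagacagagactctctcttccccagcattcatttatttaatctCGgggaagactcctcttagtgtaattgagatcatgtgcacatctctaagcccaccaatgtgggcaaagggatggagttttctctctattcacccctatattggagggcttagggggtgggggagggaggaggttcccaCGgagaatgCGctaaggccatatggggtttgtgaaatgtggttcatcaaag

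BDNF is also known for promoters that respond to neuronal activity through CREB, a factor that binds cAMP response elements. The letters TGACG, a cAMP response element half-site, were searched on both strands and occur in 21.2% of all promoters. They occur in 1 of the 5 BDNF windows, 47 bases before the start, at chr11:27701651-27701680, in 1 of the 4 NTRK2 windows, and not in those of NTRK3 and NTF3. The BDNF stretch is shown because cAMP and BDNF were both in the differentiation medium. The capitals mark the half-site, read on the opposite strand as CGTCA. A gene count does not say which promoter was used.
BDNF: tatgacagcgcaCGTCAaggcaccgtggag

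NTRK2, the receptor of BDNF, was lower in dKO than in WT cells at every stage. WT NPCs at P2 had 55.2 and 60.1 CPM and dKO NPCs 23.6 and 15.3 CPM. At P4, both WT samples had 149.5 CPM, and dKO samples had 13.6 and 15.9 CPM. At D28, WT cells had 52.0 and 48.9 CPM and dKO cells 3.10 and 5.89 CPM, which rest on 13 and 31 counts. WT and dKO samples did not overlap at any stage. The log2 fold change of dKO over WT was -1.58 (standard error 0.25) at P2, -3.33 (0.18) at P4 and -3.43 (0.22) at D28, which is 2.99-fold, 10.1-fold and 10.8-fold lower. With GC content and gene length corrected for, NTRK2 differed less, by -2.64 at P4 and -2.46 at D28. By mean level the order was WT-P4 (149.5 CPM), WT-P2 (57.7 ± 3.48 CPM, SD, n = 2), WT-D28 (50.4 ± 2.21 CPM), dKO-P2 (19.5 ± 5.89 CPM), dKO-P4 (14.8 ± 1.65 CPM) and dKO-D28 (4.50 ± 1.97 CPM), and among neighbours only dKO-P2 and dKO-P4 overlapped. In bulk samples, fewer cells of a type and less RNA per cell cannot be told apart.

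NTRK2 also moved differently with time in the 2 genotypes. From P2 to P4 its log2 fold change was 1.36 (standard error 0.18) in WT and -0.39 (0.26) in dKO NPCs. From P2 NPCs to D28 it was -0.21 (0.19) in WT and -2.06 (0.30) in dKO cells. The dKO change minus the WT change was -1.75 (0.32) for passage and -1.85 (0.35) for differentiation, the latter -1.20 with that correction of NTRK2. The WT levels before and after differentiation were thus close, while the dKO level at D28 was 4.17-fold under that of dKO NPCs.

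NTRK3, the receptor of NT-3, ran the other way at P2 only. There, WT NPCs had 12.8 and 17.6 CPM (10 and 24 counts) and dKO NPCs 28.1 and 34.1 CPM. At P4, WT NPCs had 147 and 171 CPM and dKO NPCs 15.9 and 16.4 CPM. At D28, WT cells had 52.7 and 53.6 CPM and dKO cells 7.87 and 5.32 CPM. The genotypes were again apart at each stage, with dKO above WT at P2 and below it at P4 and D28. The log2 fold change of dKO over WT was 0.98 (standard error 0.27) at P2, -3.29 (0.16) at P4 and -3.02 (0.19) at D28, thus 1.97-fold higher, 9.80-fold lower and 8.14-fold lower. With the same correction, NTRK3 differed by -2.33 at P4 and -2.30 at D28. The order of mean levels was WT-P4 (159 ± 16.7 CPM, SD, n = 2), WT-D28 (53.2 ± 0.662 CPM), dKO-P2 (31.1 ± 4.26 CPM), dKO-P4 (16.2 ± 0.361 CPM), WT-P2 (15.2 ± 3.36 CPM) and dKO-D28 (6.60 ± 1.80 CPM). Of these neighbours, dKO-P4 and WT-P2 overlapped.

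With passage, NTRK3 was 10.03-fold higher at P4 in WT NPCs (log2 fold change 3.33, standard error 0.21) and was 1.93-fold lower at P4 in dKO NPCs (-0.95, 0.21). With differentiation it was 3.36-fold higher in WT cells (1.75, 0.22) and 4.78-fold lower in dKO cells (-2.26, 0.23). The dKO change minus the WT change was -4.27 (0.31) for passage and -4.00 (0.32) for differentiation. The correction brought these to -3.17 and -3.13, and the WT change of NTRK3 with passage to 2.57. The 2 comparisons share the P2 samples. Of the 2 tested members, 1 passed the call rule (unadjusted p under 0.05 and a fold change over 2) at P2, 2 at P4 and 2 at D28, where 4.42%, 22.3% and 24.2% of all genes tested did. Nothing is read from these counts, because the same contrasts were known when the genes were picked. The antisense transcript NTRK3-AS1 had 1 count over all 12 samples.

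**Figure D1:**
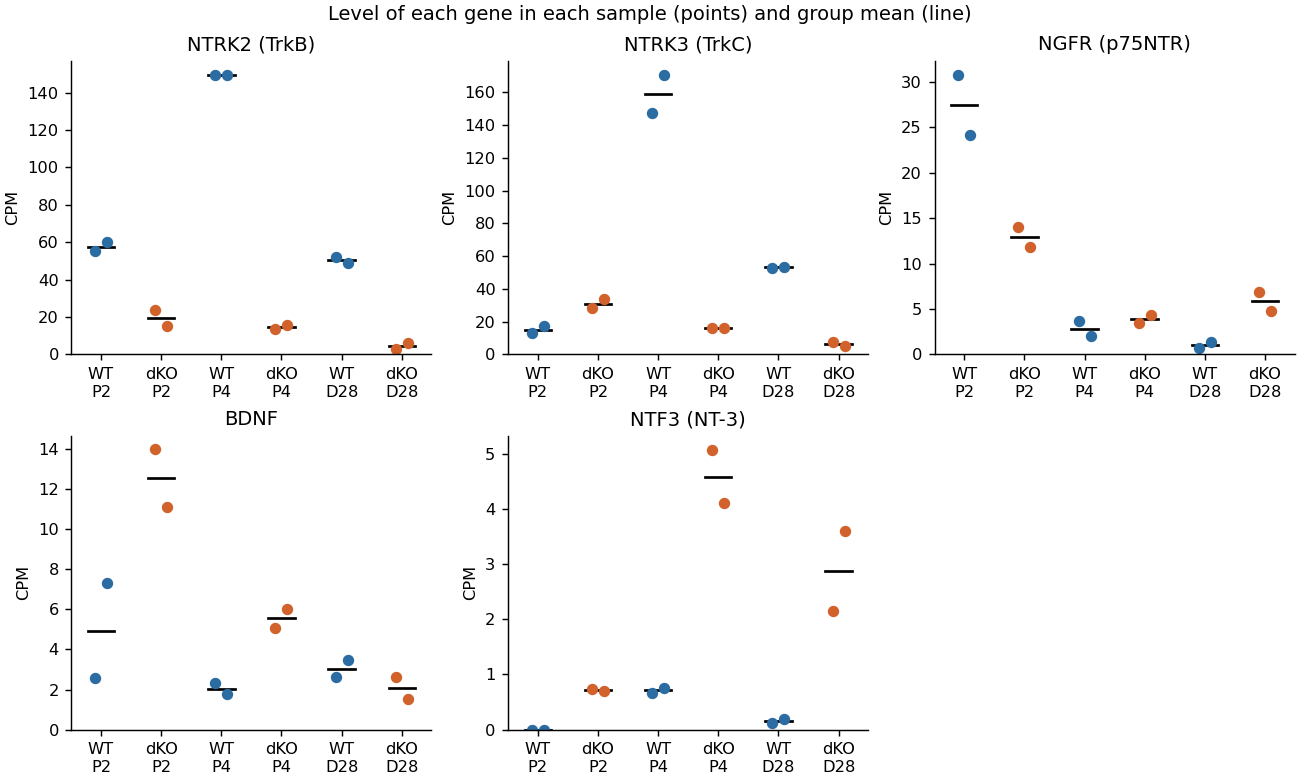
Level in CPM (vertical axes, each starting at 0) of the 5 genes in each of the 12 samples (points, WT blue and dKO orange) with the mean of each group of 2 (line). NTRK2 and NTRK3 stand highest in WT-P4 (149.5 to 171 CPM), NGFR in WT-P2, BDNF in dKO-P2 and NTF3 in dKO-P4 samples.

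Levels of NTRK2 and NTRK3 can be compared only per length, and their order depended on the length taken. In WT-P4 NPCs, NTRK3 was above NTRK2 per kilobase of all annotated exons (5.94 against 4.51 CPM) and below it per kilobase of the canonical transcript (7.94 against 17.3 CPM). In WT-D28 cells, NTRK3 had 1.99 ± 0.0247 CPM and NTRK2 1.52 ± 0.0665 CPM (SD, n = 2) per kilobase of all exons. Per kilobase of the canonical transcript they had 2.66 ± 0.0331 CPM and 5.82 ± 0.255 CPM.

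**Figure D2:**
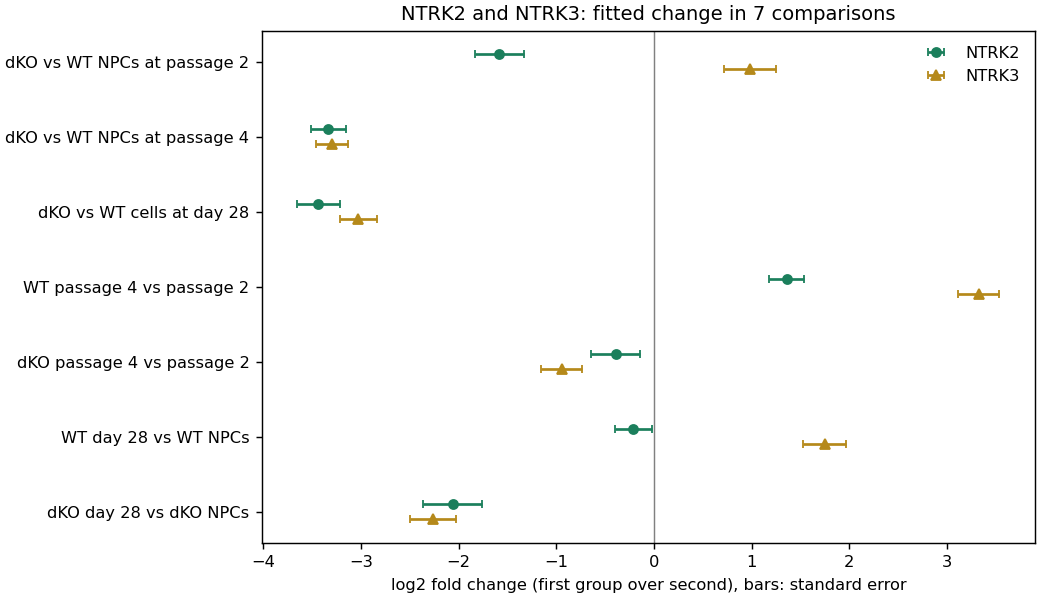
Fitted log2 fold change (horizontal axis, first group over second, bars are 1 standard error) of NTRK2 and NTRK3 in 7 comparisons of 2 groups. In the WT comparisons with P2, NTRK3 lies right of 0 both at P4 (3.33) and at D28 (1.75), whereas both genes lie left of 0 in both dKO comparisons with P2.

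NGFR, the shared receptor of all neurotrophins, had its highest level in WT NPCs at P2, where the 2 samples gave 24 and 33 counts (30.8 and 24.2 CPM). The dKO NPCs at P2 gave 19 and 17 counts (14.0 and 11.8 CPM). At P4, WT NPCs gave 11 and 8 counts (3.63 and 2.03 CPM) and dKO NPCs 15 and 18 (3.46 and 4.35 CPM). At D28, WT cells gave 6 and 14 counts (0.710 and 1.39 CPM) and dKO cells 29 and 25 (6.92 and 4.75 CPM). NGFR was thus lower in dKO than in WT NPCs at P2 and higher in dKO than in WT cells at D28, and at P4 the genotypes overlapped. In WT cells, the ratio of P2 NPCs to D28 cells was 24.6 (exact 95% counting interval 14.6 to 43.3), and in dKO cells it was 2.26 (1.44 to 3.51). The dKO cells at D28 had 5.29 times the WT level (3.11 to 9.32), and WT NPCs at P2 had 2.06 times the dKO level (1.34 to 3.22). At P4 the dKO over WT ratio was 1.43 (0.788 to 2.66), and its direction turned once GC content and length were corrected for (log2 fold change -0.18 in place of 0.47). NGFR-AS1, on the opposite strand, had 4 and 2 counts in WT-P2 and at most 2 in any other sample. The intervals cover counting error only.

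NGFR is known from neural crest and Schwann cells. Their markers summed to 27.0 to 30.8 CPM in WT-P2, 34.8 to 37.7 CPM in dKO-P2, 22.1 to 26.6 CPM in WT-D28 and 54.4 to 135 CPM in dKO-D28 samples. At P4 they summed to 24.6 to 25.7 CPM in WT and 38.3 to 42.0 CPM in dKO samples. Of the 8 markers 4 were tested, and TFAP2A (4.42), TFAP2B (8.34) and ERBB3 (6.09) were called higher in dKO than in WT cells at D28, as log2 fold changes, while SOX10 had 3 counts in the dKO-D28 samples together. The marker sums were higher in dKO than in WT samples at P2, P4 and D28. Gene by gene, 0 of the 4 tested were called at P2, and 1 was called higher at P4 and 3 at D28. Of all genes, 2.59%, 11.1% and 12.4% were called higher at these stages. The median log2 fold change of the 4 was 0.43 at P2, 0.04 at P4 and 5.26 at D28. NGFR was lower in dKO cells at P2, overlapped at P4 and was higher in dKO cells at D28. The 2 dKO-D28 samples, with marker sums of 54.4 and 135 CPM, gave 29 and 25 NGFR counts, and no order is read from these. The part of these markers in the NGFR values was not tested.

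BDNF, a ligand of NTRK2, was counted at a low level in all 12 samples. WT NPCs at P2 gave 2 and 10 counts (2.57 and 7.33 CPM) and dKO NPCs 19 and 16 (14.0 and 11.1 CPM). At P4, WT NPCs gave 7 and 7 counts (2.31 and 1.78 CPM) and dKO NPCs 22 and 25 (5.07 and 6.04 CPM). At D28, WT cells gave 22 and 35 counts (2.60 and 3.48 CPM) and dKO cells 11 and 8 (2.62 and 1.52 CPM). The dKO NPCs were above the WT NPCs at both passages, and at D28 the genotypes overlapped. The dKO over WT ratio was 2.24 (exact 95% counting interval 1.14 to 4.74) at P2 and 2.76 (1.49 to 5.43) at P4. The fitted log2 fold change of BDNF was 1.20 at P2 and 2.32 there without WT-NPC replicate 2. With GC content and length corrected for, it was 0.54 at P2 and 0.66 at P4, in place of 1.20 and 1.42. At D28 the WT over dKO ratio was 1.53 (0.898 to 2.73), with a direction that turned under the same correction (log2 fold change of dKO over WT 0.15 in place of -0.64). In dKO cells, BDNF was 6.24 times as high at P2 as at D28 (3.47 to 11.6) and 2.26 times as high at P2 as at P4 (1.42 to 3.58). In WT cells, P2 NPCs had 1.82 times the D28 level (0.888 to 3.43). The WT comparisons rest on 2 and 10 counts at P2, and without WT-NPC replicate 2 the log2 fold change of D28 over P2 was 0.40 in place of -0.74 (-1.75 with the correction).

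BDNF-AS, a transcript on the other strand of the BDNF locus, had 2.57 to 7.38 CPM over the samples. The kit and the counting are not stated to keep the strand, so reads where the 2 genes overlap cannot be told apart. In WT cells BDNF-AS went from 2.57 and 2.93 CPM at P2 to 6.16 and 6.75 CPM at D28. In dKO cells it had 5.91 and 3.48 CPM at P2 and 3.82 and 3.61 CPM at D28. At P2 its dKO over WT change was 0.73 (standard error 0.64, adjusted p = 0.677 in the quasi-likelihood test of edgeR, Benjamini-Hochberg adjustment over all genes tested, as for each adjusted p here). In WT cells it was called higher at D28 than at P2 (1.20, 0.52), with an adjusted p of 0.0722. It was no longer called with DESeq2 in place of edgeR (1.20), nor without either WT-NPC sample or without WT-D28 replicate 2 (1.12 to 1.32).

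NTF3, which encodes NT-3, the ligand of NTRK3, was nearly absent from WT samples. WT NPCs gave 0 and 0 counts at P2 and 2 and 3 at P4, and WT-D28 cells gave 1 and 2. The dKO samples gave 1 and 1 counts at P2, 22 and 17 at P4 (5.07 and 4.11 CPM) and 9 and 19 at D28 (2.15 and 3.61 CPM). At P4 and D28 the dKO samples were apart from the WT samples. The dKO level was 6.41 times the WT level at P4 (exact 95% counting interval 2.53 to 20.8) and 18.3 times at D28 (5.64 to 93.9). The fitted log2 fold change of NTF3 at P4 was 2.60, and 2.02 with the correction. At P2, 0 counts in WT NPCs allow up to 3.85 and 2.20 CPM, above the 0.739 and 0.696 CPM of the dKO NPCs, so a difference was not detectable at this depth. In dKO-P4 cells, where NTF3 was highest, NTRK3 was 9.80-fold under its WT level.

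**Figure D3:**
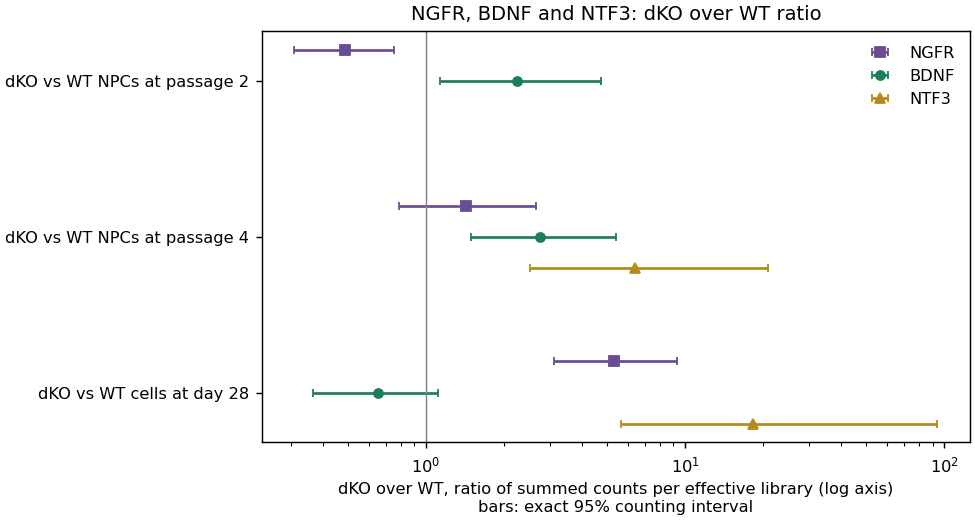
Ratio of dKO to WT summed counts per effective library for NGFR, BDNF and NTF3 (horizontal log axis, vertical line at 1, bars are exact 95% counting intervals) at P2, P4 and D28. NTF3 has no point at P2, where WT NPCs had 0 counts, and its point at D28 lies at 18.3, while NGFR lies left of 1 at P2 and at 5.29 at D28.

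NTF4, which encodes NT-4, the other ligand of NTRK2, was also rare. It gave 0 counts in both WT-P4 samples and 9 and 7 in dKO-P4 samples, at least 4.38-fold higher against a floor of 3 counts over the group. At D28 NTF4 gave 0 and 1 counts in WT and 4 and 11 in dKO cells, a ratio of 29.4 (exact 95% counting interval 4.52 to 1236). NTF3 and NTF4 thus each had more counts in dKO than in WT samples at P4 and D28, with few counts behind each, and NTF4 was not tested for that reason. Mesenchymal markers such as COL1A1 and PDGFRA summed to 865 to 1043 CPM in dKO-P2, 1701 to 1722 CPM in dKO-P4 and 303 to 407 CPM in dKO-D28 samples, and to 151 to 386 CPM in WT-P2, 249.5 to 259 CPM in WT-P4 and 194 to 207 CPM in WT-D28 samples. Of the 6 tested mesenchymal markers, 6 were called higher in dKO cells at P2 and 4 at P4. The adjusted p was under 0.05 for 2 of the 6 calls at P2 and for all 4 at P4. At D28, 4 were called higher and 2 lower. Of all genes, 2.59%, 11.1% and 12.4% were called higher at P2, P4 and D28. The part of these markers in the ligand counts was not tested.

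The other genes of the pathway were taken from 4 lists that leave out the 5 genes above: ligands and their processing, receptors and their partners, Trk signalling, and p75NTR signalling. They hold 83 genes, of which 76 were tested. In dKO against WT NPCs at P2, 2 were called higher and 1 lower (3.95% of those tested), where 2.59% of all genes were called higher and 1.83% lower (4.42% in all). At P4, 6 were higher and 9 lower (19.7%), beside 11.1% higher and 11.2% lower of all genes (22.3% in all). At D28, 5 were higher and 14 lower (25.0%), beside 12.4% and 11.7% of all genes (24.2% in all). The median log2 fold change of the lists was 0.10 at P2, -0.26 at P4 and -0.33 at D28, beside 0.00, 0.02 and 0.00 over all genes tested. The share called was near that of all genes in each of these comparisons.

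Among receptor partners and processing enzymes, dKO cells had less SORCS3, PCSK1, LINGO1 and CPE and more FURIN, PLAT, SORL1 and TNFRSF19, each at the stages given here. Of these genes, only PLAT was called at P2 (1.09, standard error 0.35, adjusted p = 0.126). For SORCS3, PCSK1, PLAT, SORL1 and TNFRSF19 the difference was not the same at all stages, as given under the flagged results. At D28, SORCS3, a sortilin relative, fell by 4.19 on the log2 scale (standard error 0.31, adjusted p = 1.38e-08), from 27.0 and 28.3 CPM in WT to 1.91 and 1.14 CPM in dKO cells. PCSK1, a convertase of secretory granules, fell by 3.14 (0.24, adjusted p = 1.96e-08), from 54.7 and 55.0 CPM to 8.11 and 4.56 CPM. LINGO1, a co-receptor of p75NTR, fell by 2.09 (0.14, adjusted p = 4.57e-09). SORCS3 and LINGO1 were also lower at P4 (-1.91 and -1.59, the latter -2.18 with GC content and length corrected for), as was CPE, which sorts and trims prohormones (-1.67, 0.10, adjusted p = 2.11e-09). In contrast, FURIN, the convertase of the general secretory route, rose at P4 by 1.40 (0.18, adjusted p = 9.92e-06). PLAT, the tissue plasminogen activator, rose at D28 by 2.92 (0.32, adjusted p = 1.07e-06), or by 1.94 with GC content and length corrected for, and SORL1 and TNFRSF19 rose there by 1.3 (0.16, adjusted p = 5.35e-06) and 1.56 (0.21, adjusted p = 1.23e-05). At P2, PCSK7 rose by 1.5 (0.23, adjusted p = 0.00688), and it was the only one of the 3 called genes with an adjusted p under 0.05.

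SORT1, which binds neurotrophin precursors together with p75NTR, had 111 to 240 CPM over all samples. Its dKO over WT log2 fold change was 0.42 (standard error 0.14, adjusted p = 0.128) at P2, -0.55 (0.12, adjusted p = 0.00154) at P4 and 0.55 (0.12, adjusted p = 0.00105) at D28, in no case over the fold threshold. In Trk signalling, 39 genes were tested, of which 4 were called at P4 (10.3%, beside 22.3% of all genes) and 6 at D28 (15.4%, beside 24.2%). At P4, SHC1, an adaptor bound by active Trk receptors, rose by 2.07 (0.18, adjusted p = 3.88e-07), from 44.9 CPM in both WT samples to 192 and 184 CPM in dKO NPCs. GAB1, a docking protein, fell by 1.65 at P4 (0.17, adjusted p = 7.06e-07). RPS6KA1, a kinase downstream of ERK, rose by 1.52 at P4 (0.25, adjusted p = 9e-05). Of the 17 tested genes of p75NTR signalling, 1 was called at P4 and 1 at D28 (5.88% each).

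**Figure D4:**
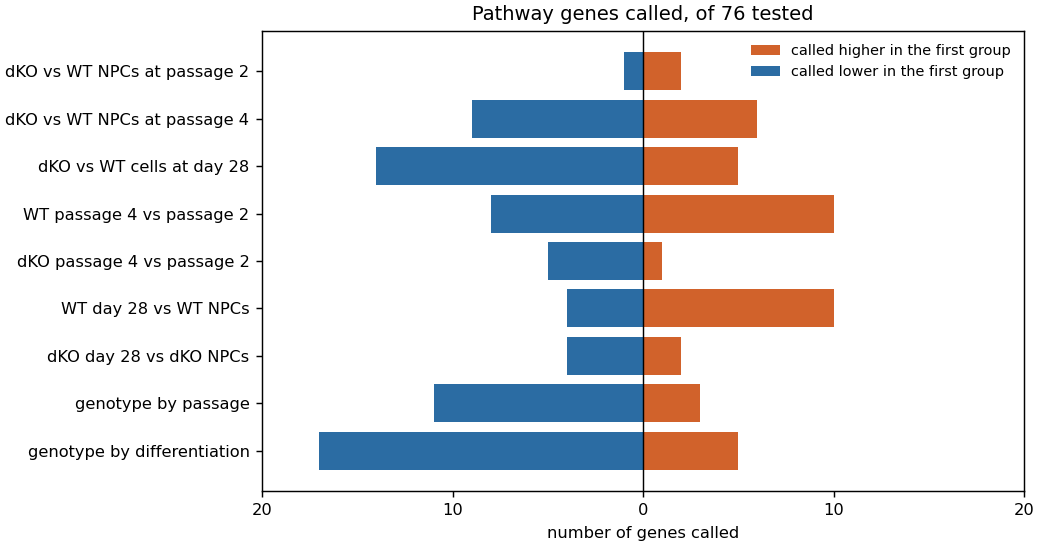
Number of genes of the 4 pathway lists called higher (orange, to the right) or lower (blue, to the left) in the first group, of 76 tested, in 7 comparisons of 2 groups and for the 2 differences between genotypes. At D28, 14 were lower and 5 higher in dKO cells, and for the difference between genotypes in the change with differentiation 17 were lower and 5 higher.

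In WT cells 10 of these genes were higher and 4 lower at D28 than at P2 (18.4%), where 12.9% of all genes were higher and 11.5% lower (24.4% in all). Among the largest rises were those of SORCS3 (4.85, standard error 0.52, adjusted p = 1.69e-06) and PCSK1 (3.08, 0.34, adjusted p = 2.36e-06). SORCS3 had 0 and 2 counts in WT-P2 NPCs, and without WT-NPC replicate 2, which held both, the fitted rise was 9.88, a value set by the prior count, while that of PCSK1 was 4.40. In dKO cells 2 were higher and 4 lower (7.89%), beside 4.01% and 3.14% of all genes (7.14% in all). The largest fall was that of PCSK7 (-2.69, 0.22, adjusted p = 2.08e-05). The difference between the genotypes in this change was called for 22 genes, 5 higher and 17 lower in dKO (28.9%), beside 12% and 11.1% of all genes (23.2% in all). From P2 to P4, 10 were higher and 8 lower in WT NPCs (23.7%), beside 10.3% and 9.49% of all genes (19.8% in all). In dKO NPCs 1 was higher and 5 lower (7.89%), beside 4.61% and 5.22% (9.83% in all). The difference in the change with passage was called for 14 genes, 3 higher and 11 lower (18.4%), beside 9.72% and 9.57% of all genes (19.3% in all).

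Genes that Trk receptors and neuronal activity are known to induce were called in both directions. Of 20 tested, 1 was called higher and 1 lower in dKO against WT NPCs at P2 (10%), 7 and 3 at P4 (50%), and 3 and 6 at D28 (45%), beside 4.42%, 22.3% and 24.2% of all genes. From P2 to P4, 2 of the 20 were called higher and 12 lower in WT NPCs (70%, beside 19.8% of all genes). In dKO NPCs 3 were called higher and 3 lower (30%, beside 9.83%). FOSB gave 1 and 4 counts in WT-P4 and 226 and 161 in dKO-P4 samples (log2 fold change 5.94, standard error 0.60, adjusted p = 2.91e-05), or 6.98 without WT-NPC-P4 replicate 2 and 4.83 with GC content and length corrected for. The WT change of FOSB from P2 to P4 was -7.79 (0.55, adjusted p = 4.26e-06). VGF, a secreted peptide precursor, rose at P4 by 3.38 (0.25, adjusted p = 1.5e-08), whereas NPTX2, a synaptic pentraxin, fell by 2.47 (0.26, adjusted p = 8.4e-07). At D28, SCG2 fell from 579 and 580 CPM in WT to 45.6 and 8.36 CPM in dKO cells (-4.47, 0.57, adjusted p = 0.000529). ARC had 150 and 151 CPM in WT-D28 cells and 21.7 and 1.71 CPM in dKO-D28 cells (-3.76, 0.66, adjusted p = 0.00265), so the 2 dKO samples differed widely in both genes. Leaving out dKO-D28 replicate 1 or 2 gave -6.11 or -3.66 for SCG2 and -6.43 or -2.78 for ARC. DUSP6, a phosphatase induced by ERK signalling, was higher in dKO than in WT cells at P2 (1.72, 0.23, adjusted p = 0.00254) and at D28 (1.69, 0.19, adjusted p = 7.44e-06). The other gene called at P2 was EGR1, which was lower in dKO NPCs (-1.22, 0.21, adjusted p = 0.0103), or -0.97 without dKO-NPC replicate 2.

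Of 10 tested regulators of BDNF transcription, 0 were called in dKO against WT cells at P2, 1 at P4 (10%) and 2 at D28 (20%). Of all genes, 4.42%, 22.3% and 24.2% were called. REST, the repressor of neuronal genes, was called higher in dKO cells at P4 (1.17, standard error 0.17, adjusted p = 4.47e-05) and at D28 (2.67, 0.18, adjusted p = 3.93e-09). WT-D28 cells had 17.5 and 17.6 CPM of REST and dKO-D28 cells 101 and 121 CPM, while at P2 the samples of both genotypes lay between 82.2 and 96.0 CPM. At P4 the call of REST was lost without WT-NPC-P4 replicate 1, where its log2 fold change was 0.88. NPAS4, a factor induced by neuronal activity, was lower in dKO than in WT cells at D28 (-2.36, 0.70, adjusted p = 0.0252), with -4.99 without dKO-D28 replicate 1 and -1.40 without replicate 2. The other trophic factor in the differentiation medium was GDNF. Of the 5 tested genes in a list of GDNF family ligands and receptors, 1 was called at P2 (20%), 2 at P4 and 2 at D28 (40% each). The shares of all genes are those given above for these stages. The GDNF receptor RET had 2.66 to 9.54 CPM in all samples and was not called in any of the 9 comparisons. Its binding partner GFRA1 was higher in dKO than in WT NPCs at P4 (2.12, 0.39, adjusted p = 0.00303), from 44.9 and 53.3 CPM in WT up to 200 and 229 CPM in dKO NPCs. At D28, GFRA1 was not called, the dKO samples (82.3 and 30.8 CPM) lying on either side of the WT samples (51.0 and 55.2 CPM). NCAM1, which also binds GDNF, was lower in dKO cells at P4 (-3.45, 0.34, adjusted p = 7.29e-05) and at D28 (-3.02, 0.32, adjusted p = 9.99e-05, or -3.75 without dKO-D28 replicate 1). GFRA2, another gene of the GDNF list, was lower in dKO cells at P2 (-1.58, 0.40, adjusted p = 0.0420) and at D28 (-2.97, 0.32, adjusted p = 7.84e-07).

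**Figure D5:**
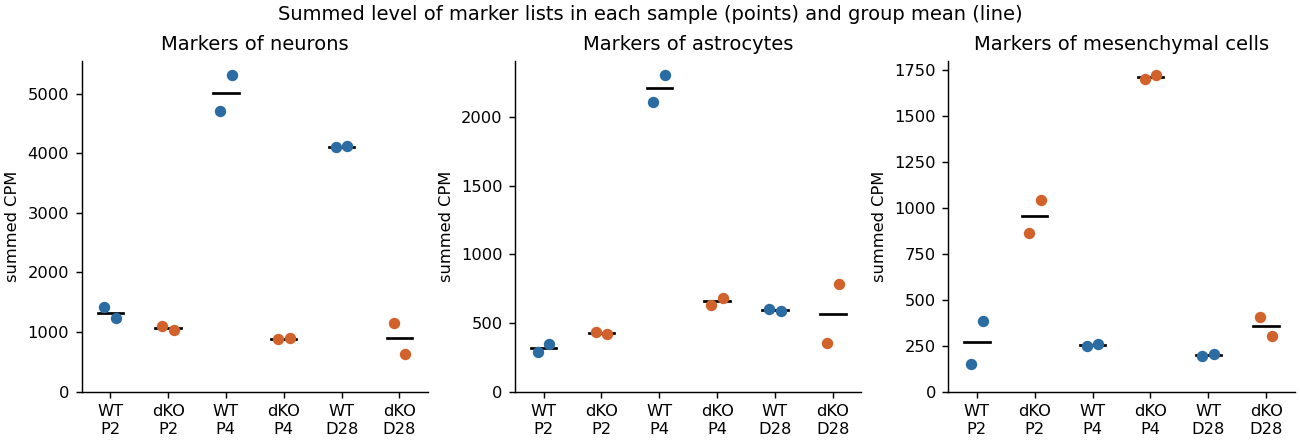
Summed CPM (vertical axes, each starting at 0) of marker genes of neurons, astrocytes and mesenchymal cells in each of the 12 samples (points, WT blue and dKO orange) with group means (lines). Neuron markers sum to between 4100 and 5317 CPM in WT-P4 and WT-D28 and to 1153 CPM or less in dKO-P4 and dKO-D28 samples, and astrocyte markers are highest in WT-P4 (2114 and 2310 CPM).

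Markers of neurons went with NTRK2 and NTRK3 in some comparisons and not in others. All 8 tested neuron markers were called lower in dKO cells at P4 and at D28. At P2 edgeR called 0 of them, and 1 had an unadjusted p under 0.05 (DCX, log2 fold change -0.93), while NTRK2 was 2.99-fold lower and NTRK3 1.97-fold higher in dKO NPCs. Astrocyte markers summed to 2114 to 2310 CPM in WT-P4 and 634 to 682 CPM in dKO-P4 samples. At D28 they summed to 589 to 601 CPM in WT and 354 to 784 CPM in dKO samples, and these sums overlapped. Taken gene by gene, 5 of the 7 tested were called lower and 1 higher in dKO cells, at P4 and at D28 alike. That is 85.7% each, beside 22.3% and 24.2% of all genes, with median log2 fold changes of -2.21 and -3.03. Both receptors were lower in dKO cells at P4 and D28. From WT-P2 to WT-D28, neuron markers went from 1228 to 1412 CPM up to 4100 to 4129 CPM, while the mean of NTRK2 went from 57.7 to 50.4 CPM and that of NTRK3 from 15.2 to 53.2 CPM. The part of these markers in the receptor values was not tested.

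Over the 12 samples, the genes most like NTRK2 in log2 (CPM + 1) were DENND5B (Pearson's r = 0.951), THY1, a surface protein of neurons (0.95), and ENKUR (0.947). Those most like NTRK3 were RCAN1, a regulator of calcineurin (0.977), DKK3 (0.976) and CORO2B (0.974). NTRK2 and NTRK3 correlated with each other at 0.824, which put NTRK3 at rank 140 for NTRK2 and NTRK2 at rank 434 for NTRK3. These are descriptions over 6 groups of 2 samples that share library depth and group, so the 12 points are not independent.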

How the data were processed

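Libraries of 12 samples were made from total RNA with a TruSeq kit. HISAT2 2.0.4 served for mapping to hg38, and with SAMtools 1.3.1 and htseq-count 0.6.0 the authors obtained the deposited counts per gene, which carry no normalization. The strand setting and annotation release are not given in the sources used here. GENCODE v44 gave symbols, positions and lengths for 57532 of 58302 genes.

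In R 4.3.3, a mean of 20 counts or more over the samples was required, TMM factors were computed, and 1 model of 6 group means was tested with edgeR 4.0.16 (quasi-likelihood, robust). As in the study, calls took an unadjusted p under 0.05 and a fold change over 2. Adjusted p covers all 13454 genes. Fitted changes of NGFR, BDNF and NTF3 come from the wider fit that kept any gene with a read, and their ratios carry exact 95% intervals on summed counts. The alternatives were DESeq2 1.42.0, adjusted p, a fit of the samples compared alone, other filters, a correction in 10 bins of GC and length, a replicate block, and each sample left out. The fit was tested on simulated data. Genes and lists were chosen with earlier results of these data known. Beside the 5 genes, NTF4, SORT1, BDNF-AS, RET, GFRA1 and some of the called list genes with the largest changes in a comparison are named. Some genes of the pathway lists and of the other lists are counted in the lists but not reported by name here.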

Additional observations from a re-analysis of the deposited data

Results flagged for a closer look

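For these genes the dKO over WT difference was not the same at the stages compared, by a test of the difference itself in edgeR (Benjamini-Hochberg adjusted p). Values are the change in dKO minus that in WT cells on the log2 scale. From P2 NPCs to D28 they were -5.59 for SORCS3 (standard error 0.95, adjusted p = 0.000327), -3.66 for PCSK1 (0.55, adjusted p = 0.000109) and -2.62 for PCSK2 (0.57, adjusted p = 0.0047). They were 2.04 for SORL1 (0.29, adjusted p = 6.2e-05), 1.83 for PLAT (0.50, adjusted p = 0.0113), 1.75 for PCSK6 (0.64, adjusted p = 0.0482) and 1.45 for TNFRSF19 (0.44, adjusted p = 0.0207). The call was lost for PLAT (0.79) and TNFRSF19 (1.24) without WT-NPC replicate 2, for PLAT also with GC content and length corrected for (0.95), for TNFRSF19 without dKO-D28 replicate 2 (1.00), and for PCSK6 without dKO-NPC replicate 2 (0.99), which was 3.29 without replicate 1. Without WT-NPC replicate 2 the differences were -10.63 for SORCS3, then with no count in WT-P2, -4.98 for PCSK1 and -3.81 for PCSK2.

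From P2 to P4 they were -3.31 for SORCS3 (0.95, adjusted p = 0.0188), -1.95 for PCSK1 (0.56, adjusted p = 0.0195), -1.88 for GAB1 (0.31, adjusted p = 0.000394) and -1.69 for PLAT (0.42, adjusted p = 0.00813). They were 2.79 for PCSK6 (0.74, adjusted p = 0.0126), 1.36 for RPS6KA1 (0.40, adjusted p = 0.0229) and 1.29 for SHC1 (0.27, adjusted p = 0.00292). Without WT-NPC replicate 2 the calls of RPS6KA1 (1.04) and SHC1 (0.96) were lost, and the differences were -8.35 for SORCS3, -3.27 for PCSK1, -2.49 for GAB1 and -2.74 for PLAT. That of PCSK6 was 4.33 and 2.04 without dKO-NPC replicate 1 and 2. Both sets share the P2 samples.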

How the results depend on the processing

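With 2 samples a group and as few as 756942 counts at P2, differences of rare genes such as NTF3 could not be seen there. The number of pathway genes called stayed within 1.5 times its value in 106 of 116 repeats. The adjusted p left 1 gene at P2 in place of 3. Requiring 10 counts in every sample left 1 at P2, 7 in place of 14 for WT D28 against P2, and 9 in place of 14 for the genotype difference with passage. Leaving out 1 sample gave 1 to 6 genes at P2 (1 without WT-NPC replicate 1, 6 without WT-NPC replicate 2) and 3 to 10 in dKO D28 against P2 (3 without dKO-NPC replicate 2, 10 without dKO-D28 replicate 1), in place of 6. It gave 14 to 17 for dKO against WT at P4 and 16 to 20 at D28.

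The labels do not say whether the replicate numbers pair the samples. Deviations of same-numbered samples correlated at 0.0176 on average, -0.058 to 0.194 over 15 pairs of groups. Between WT and dKO samples of the same stage the correlation was 0.064 at P2, 0.194 at P4 and -0.047 at D28. Most of the pairs join different stages, so the average cannot decide whether samples of a stage were paired. With a replicate block, 3, 15 and 19 pathway genes were called for dKO against WT at P2, P4 and D28.

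NTRK2 and NTRK3 kept their sign in 107 of 107 repeats each, but only 79 and 80 of these values stayed within the replicate spread. The correction for GC and length moved both by over 1.5 times, as given above. BDNF kept its sign in 94, NGFR in 96 and NTF3 in 95 of 98. Apart from the cases given above, NTF3 turned with DESeq2 in WT D28 against P2 (-0.14 in place of 2.67) and in the genotype differences with differentiation and passage, and BDNF in that with passage without WT-NPC replicate 2 (-0.91 in place of 0.22). The cause was not tested.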
